A study of Mus musculus with 9 samples.

Results

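Nes, Vim and Cd34 are 3 of the 31053 genes counted in sorted brain cells of mice, and they have each been proposed to mark progenitors of the microglia that refill a depleted brain. The 3 genes were chosen by name and selected on their unique molecular identifiers (UMIs, 1 per captured transcript) in these same libraries. Their levels and shares between conditions, and their ties to Mcm5, Mcm6, Mki67 and Lgals3, are therefore given as descriptions without a test. All mice were female, 5 months old and of the strain C57BL/6 by the labels, which the study's methods give as C57BL/6J. Ctrl mice were naïve and left untreated. PLX5622, which inhibits the receptor CSF1R on which microglia depend, was given to D0 mice for 14 days at 1200 mg/kg of diet. D2 mice were fed in the same way and then returned to control diet for 2 days. Each of the 3 Ctrl libraries came from 1 brain, and each of the 3 D0 and 3 D2 libraries from 2 pooled brains. The brains were perfused, the cerebellum was removed, and live cells carrying CD11b, a surface protein of myeloid cells, were sorted and sequenced by the 10x 3' method.

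Nestin, the product of Nes, is an intermediate filament protein best known from neural stem cells, where it assembles together with vimentin, the product of Vim. Both are also made by cells of blood vessels, and vimentin is made by many migrating or dividing cells and by blood leukocytes. CD34 is a sialomucin of the cell surface, used to isolate haematopoietic stem cells and also carried by endothelium. MAC2, or galectin-3, is encoded by Lgals3. Mcm5 and Mcm6 encode subunits of the helicase that opens DNA at replication, and Mki67 encodes the Ki-67 protein of dividing cells.

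The 8 libraries used by the study (all but D2-3) held 33245 barcodes and from 20257894 to 61230741 UMIs each. With the filters that the study applied to each barcode, 28655 cells were kept, 2418 to 4980 per library. Between 1.13% and 24.2% of the barcodes of a library exceeded 20000 UMIs, compared to 37.3% in D2-3, whose values are given apart. Libraries shared 1 to 8 barcodes in each of the 36 pairs. Clusters drawn without the 3 genes, Mcm5, Mcm6, Mki67 and Lgals3 gave 22476 microglia-like cells, 1596 to 3847 per library, in 9 of 20 clusters. All 10 microglia markers were detected in them. The summed level of these markers lay between 27465 and 32436 CPM in Ctrl, where CPM is the number of UMIs from a gene in every 1000000 UMIs of those cells. It was lower in D0 (19542 to 21552 CPM) and in D2 (16570 to 17024 CPM). In bulk sums over cells, fewer cells with a transcript and fewer transcripts per cell cannot be told apart, so levels and shares of cells are both given.

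All 3 genes lie on the plus strand in the mm10 (GRCm38) genome. Nes lies at chr3:87971078-87980451, with 4 exons and a transcript of 6126 bases, Vim at chr2:13573927-13582826, with 9 exons and 2193 bases, and Cd34 at chr1:194938819-194961279, with 8 exons and 2454 bases. Cd34 overlaps Gm16897, an annotated antisense gene, and the 10x 3' method keeps the strand of each transcript. The bases before the annotated starts of Nes and Cd34 follow, from RefSeq's GRCm38.p6 table, since the 2 promoters differ in base composition. They are read on the plus strand at chr3:87970843-87971077 and chr1:194938571-194938818, and the capitals mark GC boxes.
Nes: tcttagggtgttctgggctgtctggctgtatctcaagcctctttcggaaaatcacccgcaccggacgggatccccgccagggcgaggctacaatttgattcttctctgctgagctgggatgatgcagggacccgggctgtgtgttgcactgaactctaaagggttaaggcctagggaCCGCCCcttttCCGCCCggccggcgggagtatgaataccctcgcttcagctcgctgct
Cd34: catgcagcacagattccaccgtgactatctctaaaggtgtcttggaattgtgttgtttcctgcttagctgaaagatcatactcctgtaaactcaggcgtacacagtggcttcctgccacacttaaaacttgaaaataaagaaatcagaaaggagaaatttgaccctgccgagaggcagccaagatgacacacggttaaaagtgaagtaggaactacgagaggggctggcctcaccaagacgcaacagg

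Over the 250 bases before the RefSeq start, the GC share was 58.8% for Nes, 58.4% for Vim and 46.4% for Cd34, compared to a median of 52.4% over 32851 promoters of the same length. The Nes window held 15 CpG dinucleotides, that of Vim 8 and that of Cd34 6, which is the median. Of 6 motifs searched on both strands, the Nes window held GC boxes (GGGCGG, found in 32.7% of all promoters) 73 and 62 bases before the RefSeq start. That start lies downstream of the annotated start of Nes, where the printed stretch ends. The Vim window, not printed because it lies inside the annotated first exon of Vim, held a TATA box (TATAAA, 12.4%) 32 bases before the RefSeq start, CCAAT boxes (33.8%) 196 and 94 bases before it and PU.1 boxes (GAGGAA, 23.3%) 155 and 118 bases before it. The AP-1 site (TGACTCA, 4.46%) and the E2F site (TTCCCGC, 3.82%) were in none of the windows, and the Cd34 window held no motif of the 6. None of the matches overlaps another.

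Nes and Vim were low in microglia-like cells of Ctrl brains and higher in every D0 and D2 library, whereas Cd34 was found at similar levels in Ctrl and D0 and was lower in D2. Nes was at 3.07, 3.51 and 5.11 CPM in the Ctrl libraries, 20.1, 22.2 and 42.8 CPM in D0, and 76.9 and 21.1 CPM in D2-1 and D2-2. The treated libraries did not overlap with Ctrl, but D2-1 held more Nes than any D0 library and D2-2 lay within the D0 range. The means were 3.90 ± 1.08 CPM (SD, n = 3), 28.4 ± 12.6 (n = 3) and 49.0 ± 39.5 (n = 2), and the fitted log2 fold changes were 3.07 (SE 0.49) for D0 and 3.75 (SE 0.52) for D2 against Ctrl. The D2 fold change was 2.60 without D2-1 and 4.38 without D2-2.

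Vim was at 3.97, 3.57 and 3.30 CPM in Ctrl, 52.0, 113 and 79.2 CPM in D0, and 61.2 and 168 CPM in D2-1 and D2-2. As with Nes, no treated library overlapped with Ctrl, but here D2-2 was the highest and D2-1 lay within the D0 range. The means were 3.61 ± 0.335, 81.5 ± 30.8 and 115 ± 75.3 CPM, and the log2 fold changes 4.73 (SE 0.45) for D0 and 5.11 (SE 0.47) for D2. Without D2-2 the D2 fold change was 4.17, and without D2-1 it was 5.71. The order of D2-1 and D2-2 was thus opposite for the 2 intermediate filament genes.

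Cd34 was at 141, 173 and 171 CPM in Ctrl, 137, 134 and 144 CPM in D0, and 108 and 125 CPM in D2. The D0 range overlapped with Ctrl-1, whereas both D2 libraries lay below all Ctrl libraries. The means were 162 ± 18.3, 138 ± 5.20 and 116 ± 11.7 CPM. The log2 fold change was -0.02 (SE 0.14) for D0, which lies within its error and was 0.26 with the Cell Ranger version in the fit, and -0.36 (SE 0.15) for D2. The D2 value was -0.09 with that term, -0.21 without D2-1, -0.50 without D2-2, -0.47 with scaling by library size only and, with the opposite sign, 0.36 with D2-3 included. The file headers name Cell Ranger 3.0.2 for Ctrl-1, all D0 libraries, D2-1 and D2-2, and 3.1.0 for Ctrl-2 and Ctrl-3. Within version 3.0.2, Cd34 was thus at 141 CPM in 1 Ctrl library, 134 to 144 CPM in D0 and 108 and 125 CPM in D2. The version and the higher Cd34 of Ctrl-2, Ctrl-3 and D2-3 cannot be told apart.

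**Figure D1:**
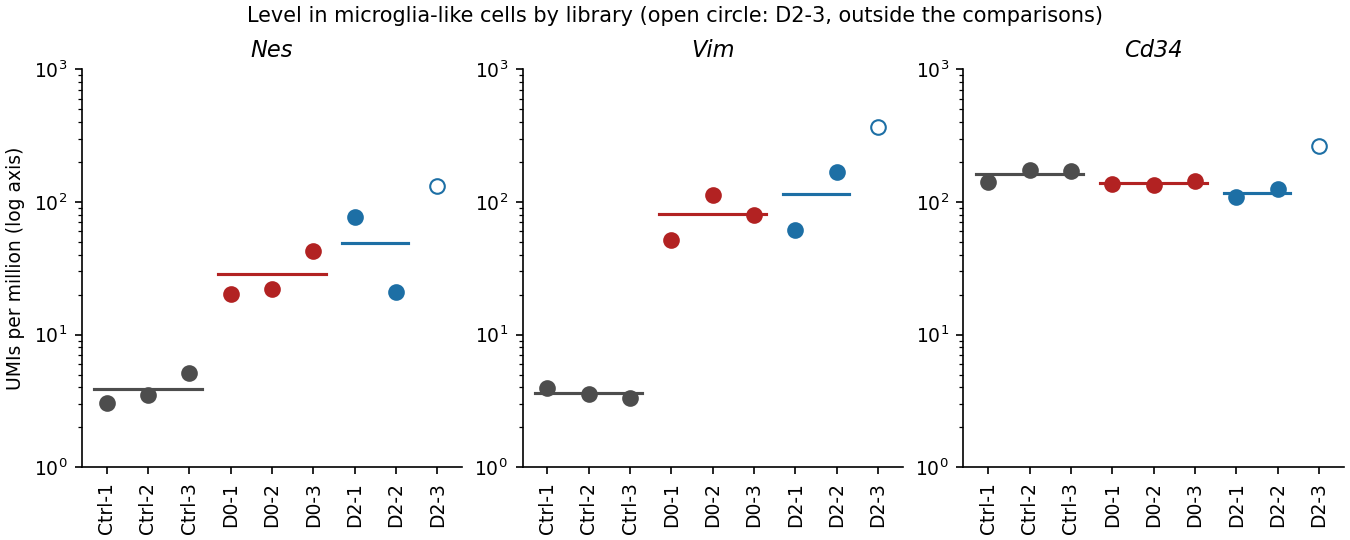
Level of Nes, Vim and Cd34 in microglia-like cells of each library, in CPM on a log axis, with 1 point per library and bars for the mean of each group. All D0 and D2 libraries lie above the Ctrl libraries for Nes (at least 20.1 against at most 5.11 CPM) and Vim (at least 52.0 against at most 3.97 CPM), while the groups of Cd34 lie close together, and D2-3, drawn apart, is the highest for each gene.

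The share of microglia-like cells with a UMI of each gene was compared after every cell had been thinned to 2000 UMIs, which left 21009 of the 22476 cells. Nes was found in 11 of 3243, 11 of 2106 and 29 of 3177 Ctrl cells. These are shares of 0.339% (exact 95% interval 0.169 to 0.606), 0.522% (0.261 to 0.933) and 0.913% (0.612 to 1.31). In D0 the shares were 2.91% (2.33 to 3.59), 3.23% (2.69 to 3.85) and 6.32% (5.23 to 7.56), and in D2 9.53% (8.45 to 10.7) and 2.71% (1.93 to 3.71). Nes-positive cells thus made up a minority in every library, with means of 0.591% ± 0.293 in Ctrl, 4.15% ± 1.88 in D0 and 6.12% ± 4.82 in D2. Without thinning, the shares ranged from 1.57% to 2.63% in Ctrl, and reached 6.71% to 24.3% in the D0 and 8.96% to 21.9% in the D2 libraries.

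Free RNA gives UMIs in cells that do not make a transcript, so the share in another class was set beside that of microglia. In the mixed monocyte and dendritic cell class, whose median depth before thinning was 7345 to 11927 UMIs against 5176 to 10500 in microglia-like cells, Nes was found in 2 of 44, 2 of 107 and 1 of 46 Ctrl cells (4.55%, 1.87% and 2.17%). The Ctrl microglia-like cells lay below this, so that by this measure their Nes could not be told from background. In the D0 libraries the same class gave 0 of 113 cells, which allows a share of up to 2.65%, 1 of 266 (0.376%) and 0 of 182 (up to 1.65%), and in D2 1 of 93 (1.08%) and 0 of 143 (up to 2.10%). The microglia-like cells of each D0 and D2 library lay above these values. By the exact interval, however, the class allows up to 3.21% in D0-1 and 2.55% in D2-2, and these overlap with the intervals of the microglia-like cells.

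Vim was found in 0.586% (0.353 to 0.913), 0.475% (0.228 to 0.871) and 0.598% (0.360 to 0.932) of the Ctrl microglia-like cells. The shares were 5.30% (4.51 to 6.18), 10.96% (9.97 to 12.01) and 7.97% (6.75 to 9.34) in D0 and 7.59% (6.62 to 8.65) and 12.8% (11.1 to 14.6) in D2. No class that lacks Vim was at hand, since its mean share was larger in all other named classes. Cd34 was found in 23.5% (22.1 to 25.0), 28.6% (26.7 to 30.6) and 27.5% (26.0 to 29.1) of Ctrl cells, 21.4% (19.96 to 23.0), 21.2% (19.9 to 22.6) and 22.9% (20.9 to 24.9) of D0 cells, and 16.0% (14.6 to 17.4) and 17.2% (15.3 to 19.3) of D2 cells. The Cd34 shares of Ctrl, D0 and D2 did not overlap, with D0-3 and Ctrl-1 apart by less than their intervals. Such shares depend on the part of a gene in all UMIs. With scaling by library size only, the D0 log2 fold of Cd34 was -0.22 and the median over all genes -0.27. In D2 these values were -0.47 and -0.14. The part of this general shift in the Cd34 shares was not tested. In the monocyte and dendritic cell class the mean Cd34 share was 1.62% and in neutrophil-like cells 2.32%, well under that of microglia-like cells.

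**Figure D2:**
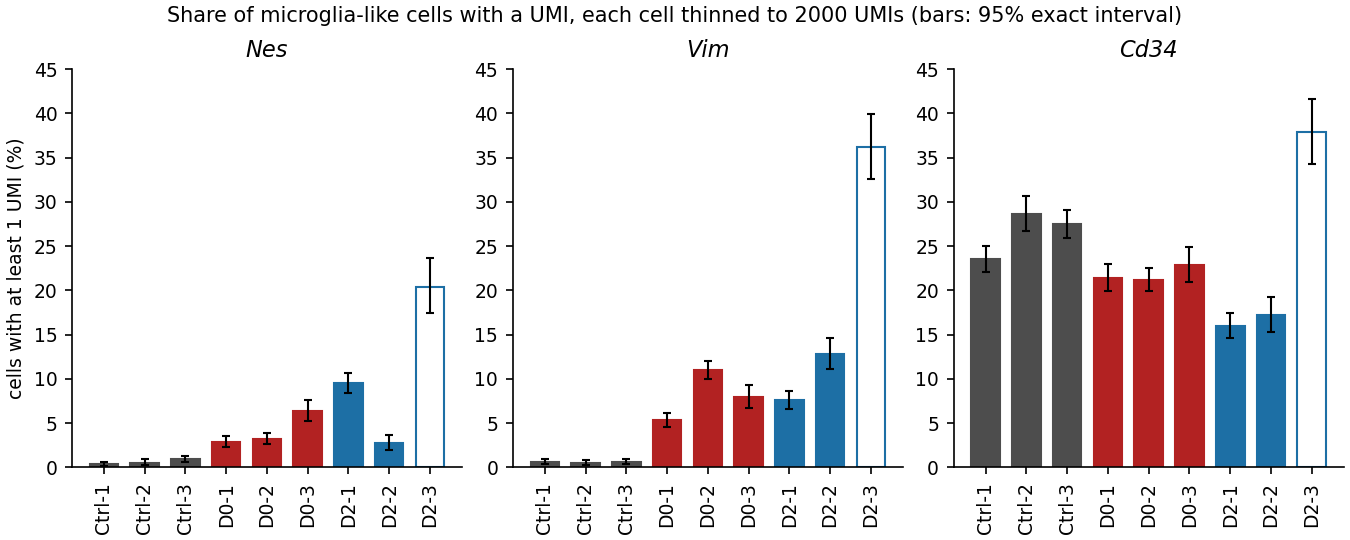
Percentage of microglia-like cells with at least 1 UMI of Nes, Vim or Cd34 after thinning each cell to 2000 UMIs, with exact 95% binomial intervals that cover counting error only, by library. Nes and Vim were found in under 1% of the cells of each Ctrl library, Nes in 2.71% to 9.53% and Vim in 5.30% to 12.8% of D0 and D2 cells, and Cd34 in 16.0% to 28.6% of the cells of all 8 libraries.

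None of the 3 genes was particular to microglia-like cells. Nes was highest in endothelial-like cells (457 ± 147 CPM, SD over 8 libraries) and mural-like cells (135 ± 32.8 CPM, 6 libraries). Microglia-like cells (24.4 ± 25.1 CPM) and border-associated macrophage-like cells (15.4 ± 10.8 CPM) followed, with overlapping spreads that mix the 3 conditions. Libraries of border-associated macrophage-like cells ranged from 5.94 to 36.3 CPM. Microglia-like cells were lower than this in each Ctrl library (at most 5.11 CPM) and higher in D0-3 (42.8 CPM) and D2-1 (76.9 CPM). It was at 6.54 ± 6.58 CPM in the monocyte and dendritic cell class, 3.43 ± 6.98 CPM in neutrophil-like cells and 0 in the 54 lymphoid-like cells. A UMI of Nes was found in 51.1% of endothelial-like cells at equal depth. The highest levels of Nes in these CD11b-sorted cells were thus those of cells of the vessel wall, which the sort should have removed.

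For Vim, microglia-like cells were at the bottom of the named classes. Vim was at 3069 ± 745 CPM in mural-like cells, 1768 ± 226 CPM in the monocyte and dendritic cell class, 1323 ± 310 CPM in endothelial-like cells, 433 ± 148 CPM in neutrophil-like cells, 289 ± 267 CPM in border-associated macrophage-like cells and 60.5 ± 59.1 CPM in microglia-like cells. The spreads of the last 2 classes mix the 3 conditions and overlapped. Within each library, however, border-associated macrophage-like cells held more Vim than microglia-like cells. Border-associated macrophage-like cells, which reside in the meninges and around vessels, were also higher in Vim after treatment, from 82.2, 93.1 and 43.7 CPM in Ctrl to 197, 868 and 395 CPM in D0 and 314 and 315 CPM in D2. Cd34 was highest in endothelial-like cells (630.5 ± 68.4 CPM, found in 71.9% of cells). Microglia-like cells came next among named classes (142 ± 21.9 CPM), above border-associated macrophage-like cells (80.3 ± 38.1 CPM), and the monocyte and dendritic cell class had 12.1 ± 5.92 CPM.

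**Figure D3:**
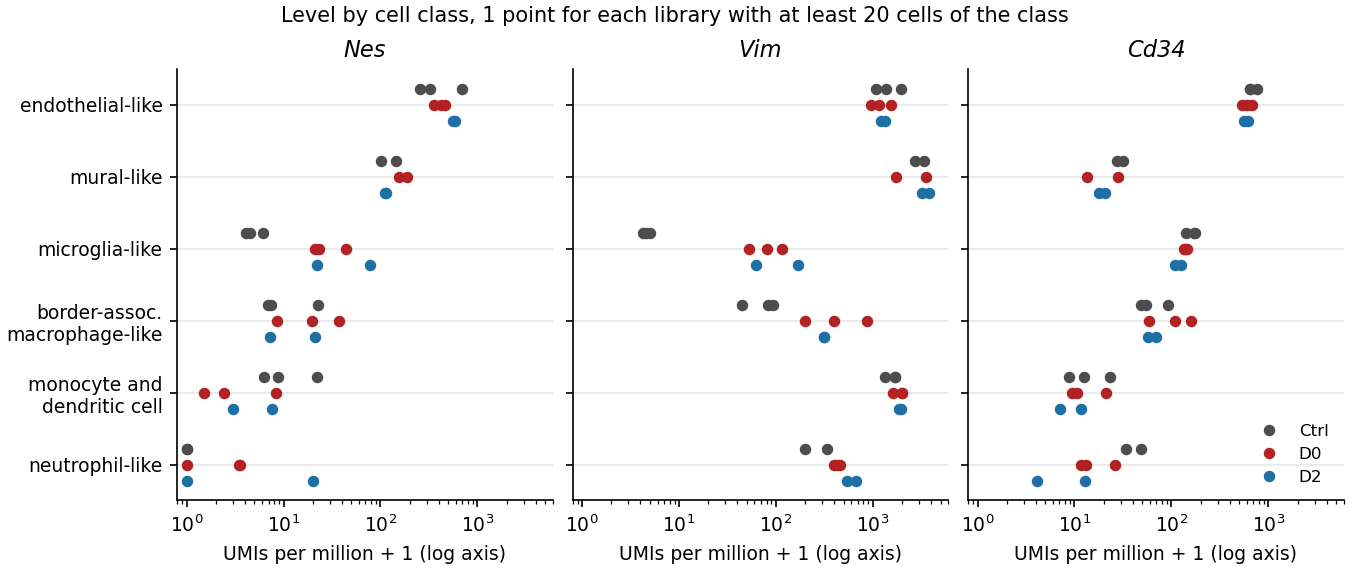
Level of Nes, Vim and Cd34 by cell class in CPM on a log axis, with 1 point per library of at least 20 cells. Nes and Cd34 are highest in endothelial-like cells (means of 457 and 630.5 CPM), and microglia-like cells have less Vim (mean 60.5 CPM) than mural-like cells (3069 CPM) or the mixed monocyte and dendritic cell class (1768 CPM).

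Since endothelial-like cells were rich in Nes and Cd34, the 3 genes were set against 9 endothelial markers in the same cells. Endothelial-like cells held 1.14 to 3.90 Nes UMIs per 100 UMIs of these markers. Microglia-like cells of Ctrl held 7.87 to 16.2 per 100. Those of D0 held 104 to 285, and those of D2 397 and 74.1. The ratio in microglia-like cells thus exceeded that of endothelial-like cells in each of the 8 libraries, Ctrl included, and the summed level of the endothelial markers in microglia-like cells was lower in D0 (12.9 to 19.3 CPM) and D2 (19.4 to 28.4 CPM) than in Ctrl (31.6 to 39.0 CPM). For Vim the ratio was 10.1 to 10.5 in Ctrl, close to the 6.08 to 8.69 of endothelial-like cells, 270 to 880 in D0, and 316 and 590 in D2. For Cd34 it was 360 to 1039 in microglia-like cells of all 8 libraries against 3.03 to 3.62 in endothelial-like cells.

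Markers of other cell types moved with the conditions in microglia-like cells. The sum of 8 neutrophil markers lay between 5.68 and 14.8 CPM in the Ctrl libraries, but between 62.0 and 216 CPM in the D0 and 51.7 and 199 CPM in the D2 libraries. For 9 monocyte markers, of which at most 1 was at 0 in a library, the same sums were 7.26 to 8.14, 10.5 to 19.3 and 15.4 to 27.3 CPM. Border-associated macrophage markers were lower after treatment (115 to 149 CPM in D0 libraries and 116 and 125 CPM in D2 libraries) than in the Ctrl libraries (215 to 270.0 CPM), and mural markers stayed under 5 CPM. The part of neutrophil and monocyte RNA in the levels of Vim was not tested by a model. Cells with a UMI of a border-associated macrophage, dendritic cell or monocyte marker were then left out. The rest are called cells without other myeloid markers below. They were 991 of 3557, 344 of 2144 and 810 of 3273 microglia-like cells in the Ctrl libraries, and 441 of 1808 in D0-3. In them the log2 fold changes in D0 and D2 were 5.24 and 5.68 for Vim, 3.05 and 3.46 for Nes and 0.09 and -0.31 for Cd34. Those of Nes and Vim were thus about as large in cells without these markers. Neutrophil markers were not part of this filter, so the part of neutrophil RNA was not tested by it.

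Within the 9 microglia-like clusters the 3 genes varied in different ways. Cluster 9, led by Birc5 and Ccnb2, and cluster 18, led by Hist1h1b and Top2a, are clusters of cycling cells that reached 20 cells only in D0 and D2 libraries. They held 67.0 ± 14.5 and 53.2 ± 10.4 CPM of Nes over 5 libraries, while the other 7 clusters had means of 13.2 to 31.6 CPM over 8 libraries, Ctrl included. Within libraries, clusters 9 and 18 held more Nes than each of the other 7 clusters in all D0 libraries and in D2-2. In D2-1 they held the least, at 52.9 and 45.4 CPM against 71.6 to 162 CPM. Mean Vim levels were 215 ± 53.6 CPM for cluster 9 and 102 ± 37.8 CPM for cluster 18. Cluster 6, led by Il1a and Tnf, had 140 ± 120 CPM of Vim, and the other clusters 5.50 to 35.7 CPM. Cd34 means were close to each other, from 109 to 167 CPM.

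The higher Nes and Vim of D0 were not limited to the clusters of cycling cells. Of the 7 clusters with libraries of every group, all D0 libraries lay above all Ctrl libraries in 6 for Nes and in 7 for Vim. In D2 both libraries lay above all Ctrl libraries in 3 clusters for Nes and in 6 for Vim. By the same measure Mki67 was higher in 5 of the 7 clusters in D0 and in 6 in D2. These clusters were thus not free of transcripts of dividing cells, and they come from the same libraries. Cd34 of all D0 libraries lay below Ctrl in 6 of the 7 clusters and of both D2 libraries in 5, although its level over all microglia-like cells in D0 overlapped with Ctrl. These levels are scaled by all UMIs. With that scaling the D0 log2 fold of Cd34 was -0.22 and the median over all genes -0.27. The part of this general shift in the counts of clusters was not tested. The share of all genes that lie apart from Ctrl in this way was not counted. Nes in D2-1 was high in most clusters, for instance 162 CPM in cluster 4, led by Slc2a5 and P2ry12, against 9.24 CPM in D2-2. Cells without any UMI of Mki67, Top2a, Mcm5 or Mcm6 are called cells without cell-cycle UMIs below. In them the log2 fold changes were 2.34 and 3.63 for Nes and 4.19 and 4.71 for Vim in D0 and D2. However, 11 of the 13 mitosis genes counted below were still called as higher in these cells in D0 and in D2. This filter thus did not take out all mitosis transcripts, and cycling cells may remain.

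Cells were then sorted by what else they held after thinning. Replicating cells had a UMI of Mcm5 or Mcm6 and none of Mki67, mitotic cells had a UMI of Mki67, and both were set against cells with none of these. MAC2+ cells had Lgals3 above a limit set by the study's rule, the mean plus 1 SD of its log value. Both were taken here before thinning, over all kept myeloid cells of the 8 libraries, monocytes and dendritic cells included. The study drew its own clusters and found larger shares of MAC2+ cells in each condition, so the cells here are not the same set. Only microglia-like cells were then held against the limit. That limit took 742 of 22476 cells, while 405 further cells with an Lgals3 UMI stayed below it. Of the 742 cells, 275 held exactly 1 UMI of Lgals3, which passes the limit in cells of under 8178 UMIs. MAC2+ cells made up 0.759%, 0.513% and 0.855% of microglia-like cells in Ctrl, 4.35%, 5.04% and 2.27% in D0, and 5.31% and 8.77% in D2.

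In MAC2+ cells both Nes and Vim were higher than in other cells of the same library, and Cd34 was not. Nes was at 75.8, 56.1 and 65.8 CPM in MAC2+ cells of the D0 libraries and 15.6, 16.2 and 37.0 CPM in the rest. In D2-2 it was at 75.4 against 10.6 CPM, but in D2-1, where the rest was already at 61.6 CPM, MAC2+ cells held 58.8 CPM. The Nes values of MAC2+ cells rest on 2 UMIs in Ctrl-1, 5 in Ctrl-3 and also 5 in D0-3. The log2 ratio of Nes, with a pseudocount of 5 CPM, was 1.81 ± 1.17 (SD over 7 libraries) and positive in 6 of 7.

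Vim was at 90.9, 184 and 408 CPM in MAC2+ cells of D0, where the rest had 31.2, 82.0 and 60.8 CPM, and at 94.8 and 317 CPM in D2, where the rest had 46.6 and 100 CPM. The log2 ratio was 1.80 ± 0.70 and positive in 7 of 7 libraries. Without cells that had other myeloid markers it was 1.03 ± 0.72, positive in 3 of 4 libraries. For Cd34 the log2 ratio was -0.14 ± 0.23, positive in 2 of 7.

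In mitotic cells, present in 5 libraries with 142 to 335 cells each, all 3 genes were higher. Nes was at 69.2, 46.3 and 80.1 CPM in mitotic cells of D0 and 14.9, 14.4 and 31.3 CPM in cells without a cycle UMI. D2-1 again stood apart, with 43.3 against 61.3 CPM, and the log2 ratio over the 5 libraries was 1.04 ± 0.89. Vim was at 113, 145 and 119 CPM against 29.4, 79.7 and 64.4 CPM in D0, with a log2 ratio of 1.22 ± 0.50 and the same direction in 5 of 5 libraries. The log2 ratio of Cd34 was smaller but nearly equal in all 5 libraries, at 0.35 ± 0.03.

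Replicating cells, 21 to 226 per library, differed between Nes and Vim. Nes was higher in replicating cells in 8 of 8 libraries, with a log2 ratio of 1.15 ± 0.38. It was at 35.7, 50.6 and 46.5 CPM in D0, compared to 14.9, 14.4 and 31.3 CPM, and at 140 and 47.6 CPM in D2, compared to 61.3 and 13.7 CPM. The Ctrl values and that of D2-2 rest on 1 or 2 UMIs of Nes per library. The log2 ratio of Vim was 0.22 ± 0.92, positive in 4 of 8 libraries, and that of Cd34 0.08 ± 0.38, positive in 3 of 8. Neither exceeded the spread between libraries, and in cells without other myeloid markers the ratio of Vim was -1.25.

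**Figure D4:**
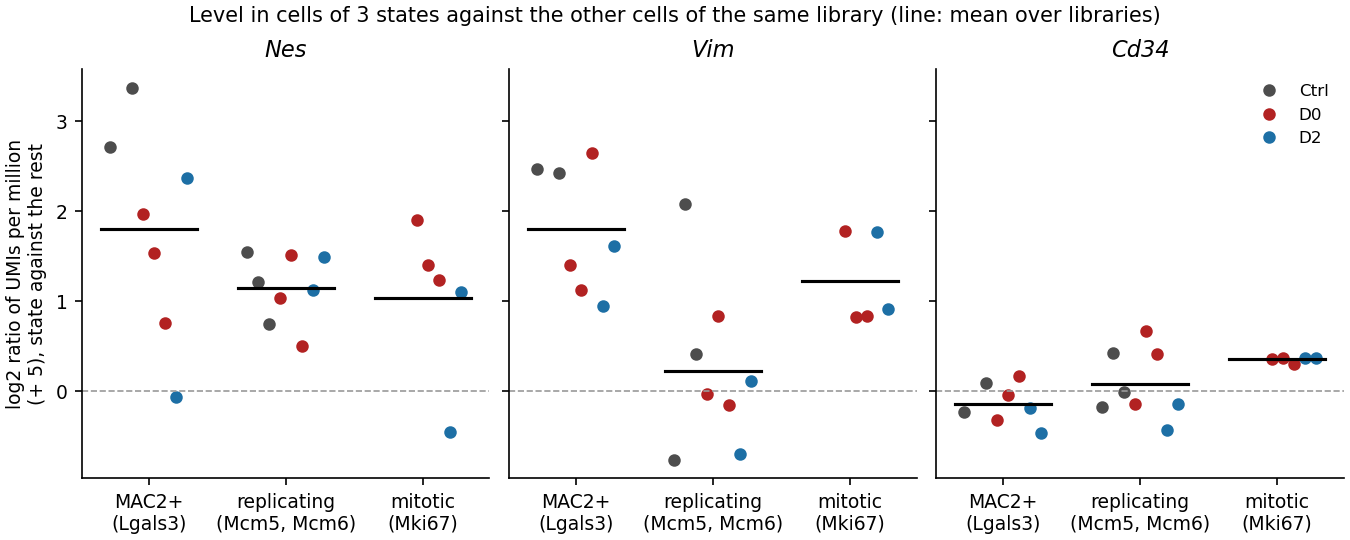
Log2 ratio of Nes, Vim and Cd34 levels (pseudocount 5 CPM) in MAC2+, mitotic and replicating microglia-like cells against the other cells of the same library, with 1 point per library and a bar for the mean. Nes lies above 0 in 8 of 8 libraries for replicating cells (mean 1.15), Vim in 7 of 7 for MAC2+ cells (mean 1.80) and 5 of 5 for mitotic cells (mean 1.22), and Cd34 stays near 0 except in mitotic cells (mean 0.35).

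Most cells with 1 of the filament genes did not hold the other at this depth. Of 315 Nes+ cells in D0, 18.1% (exact 95% interval 14.0 to 22.8) had a UMI of Vim, compared to 7.998% of Nes- cells. Intervals of cells pooled over libraries, here and below, cover counting error only and not the spread between libraries. The share was 17.9%, 18.3% and 18.0% in the D0 libraries, where Nes- cells had 4.93%, 10.7% and 7.29%. In D2 the shares were 10.1% (6.90 to 14.1) and 9.30%, and in Ctrl none of 51 Nes+ cells had Vim, which allows a share of up to 5.88%. Vim was thus more frequent in Nes+ than in Nes- cells in 5 of the 6 libraries with at least 20 Nes+ cells, all but Ctrl-3. The D2 shares pool 260 Nes+ cells of D2-1 and 38 of D2-2. Their interval held the share of the pooled negative cells, although each D2 library on its own had the higher share in Nes+ cells.

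Mki67 was found in 20.6% (16.3 to 25.5) of Nes+ cells in D0 and 7.28% of Nes- cells. In D2 the shares were 10.1% and 10.2%, and here the libraries went opposite ways, with 7.69% against 10.4% in D2-1 and 26.3% against 9.69% in D2-2. Mcm5 or Mcm6 was found in 14.0% of Nes+ cells against 5.78% of Nes- cells in D0 and in 6.38% against 2.74% in D2. D0-3, which held the most Mcm5 and Mcm6 of these libraries, gave 111 Nes+ and 1645 Nes- cells, compared to 120 and 3593 in D0-2. It thus weighs more on the Nes+ side of the pooled D0 shares. By library, the share was higher in Nes+ cells in 6 of 6, at 6.15% to 21.6% against 2.06% to 15.0%. Lgals3 was found in 8.89% against 2.79% in D0 and 7.72% against 3.603% in D2. Even among Nes+ cells, then, a UMI of the replication, mitosis or MAC2 genes was found in a minority at this depth.

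Among 700 Vim+ cells in D0, 17.1% (14.4 to 20.1) held Mki67, and among 386 in D2 23.6% (19.4 to 28.1), compared to 6.92% and 8.77% of Vim- cells. For Mcm5 or Mcm6 the shares were 8.14% against 5.90% in D0 and 2.85% against 3.02% in D2. Vim was thus tied to Mki67 in both conditions, while its tie to the helicase genes was small in D0 and not seen in the pooled D2 cells. By library, Mcm5 or Mcm6 was more frequent in Vim+ cells in 4 of 5. Lgals3 was found in 7.57% of Vim+ and 2.60% of Vim- cells in D0, and in 7.77% and 3.50% in D2. Cd34+ cells, 4726 of 21009, came from Ctrl more often than Cd34- cells (2240 of 4726 against 6286 of 16283), so their shares are given within conditions. In D0, Cd34+ and Cd34- cells held Nes in 4.53% (exact 95% interval 3.62 to 5.60) and 3.56%, Vim in 10.7% (9.28 to 12.2) and 7.75%, and Mki67 in 9.51% (8.20 to 10.95) and 7.30%. In D2 the shares were 9.16% (7.09 to 11.6) and 6.84% for Nes, 12.1% (9.75 to 14.8) and 8.81% for Vim, and 12.6% (10.2 to 15.3) and 9.68% for Mki67. Mki67 was more frequent in Cd34+ cells in 8 of 8 libraries, and Nes and Vim each in 5 of 8. Lgals3 was found in 2.82% and 3.07% in D0 and 3.55% and 3.97% in D2. By library, it was more frequent in Cd34+ cells in 3 of 8.

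To find what else set positive cells apart, thinned UMIs were summed over positive and negative cells of each library and compared with edgeR's quasi-likelihood test, with the library as a block and the member left out. A UMI of a member is a matter of sampling as well as of expression, so some cells called negative hold the transcript. Between Nes+ and Nes- cells, in 6 libraries with at least 20 cells of each kind (Ctrl-3, D0 and both D2 libraries), 749 of 8728 genes were called, which is 8.58% of those tested. The number was 495 without D0-1 and 457 without D0-2. Microglia markers summed to less in Nes+ cells in 6 of 6 libraries (median 18275 against 20608 CPM), and monocyte markers to more in 3 of 6.

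Nes+ cells held more of most mitosis genes and of some lamin genes, and less of some homeostatic genes. The largest rises were in Plk2, a polo-like kinase (log2 fold 2.23, SE 0.36, edgeR adjusted p = 1.64e-07, 48.1 against 7.90 CPM, higher in 5 of 6 libraries), and Ncapg, a condensin subunit (1.93, SE 0.38, edgeR adjusted p = 3.63e-05, 4 of 6). They were followed by Lpl, lipoprotein lipase (1.81, SE 0.16, edgeR adjusted p = 2.50e-25, 170 against 43.4 CPM, 6 of 6), Ass1, an enzyme of arginine synthesis (1.75), Fignl1 (1.69), Tfrc, the transferrin receptor (1.69, 6 of 6), and Gas2l3 (1.60, 6 of 6). Lgals3 was at 149 CPM in Nes+ and 27.9 CPM in Nes- cells, higher in 6 of 6 libraries, which is a description since Lgals3 was named with the members. Card6 (-2.73, SE 0.57, edgeR adjusted p = 9.61e-05), Chst2, a sulfotransferase (-2.21), Fam26f (-2.03), Tmem140 (-1.96) and Arrdc3 (-1.89) fell and were lower in 6 of 6 libraries.

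The ties of the members to Mki67, Mcm5 and Mcm6 were known when the members were chosen. Calls of mitosis and DNA replication genes between positive and negative cells, here and for Vim and Cd34 below, follow those ties. They are thus descriptions and no separate support. Of 13 mitosis genes, 11 rose in Nes+ cells and none fell, with Stmn1 at 1.00 and Birc5 at 1.14. The median log2 fold of the list was 1.00, compared to -0.04 over all genes tested. Without D0-1, 5 of the 13 were called, in cells without other myeloid markers 4 of 11 tested, and with DESeq2 2, with 3 that it gave no adjusted p. Of 11 DNA replication genes tested, 3 rose (Pcna 0.90, Rrm1 1.08 and Tyms 1.01), and the median was 0.86. In cells without other myeloid markers none of these was called. With that set Nes+ and Nes- cells could be compared only in the D0 libraries and D2-1, over 5528 genes. The part of the smaller number of cells in the lost calls was not tested. Mcm5, Mcm6 and Mki67, given as a description, had log2 folds of 1.11, 1.06 and 1.11.

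Among the intermediate filament genes, the lamins Lmnb1 (1.12) and Lmnb2 (1.38) rose, while Lmna (1.00, edgeR adjusted p = 0.147) and Macf1 were not called. The other 11 of the 15 on this list, Gfap and Des among them, were too low to be tested. Without any 1 of the D0 libraries, 1 of the 15 was called. In cells without other myeloid markers none was, with Lmnb1 at 0.81 (edgeR adjusted p = 0.181) and Lmnb2 too low to be tested. Vim was higher by 1.01 (SE 0.17) in Nes+ cells, as a description. Of 10 cytoskeletal and calcium-binding genes often found with Vim, 5 rose (Crip1 1.20, Capg 1.06, Lgals1 0.88, Tagln2 0.87 and Tmsb10 0.73). Genes of neural progenitors did not set Nes+ cells apart. Of 13 on the list, Notch1 and Hes1 could be tested, with log2 folds of -0.13 and -0.53 that were not called (edgeR adjusted p = 0.882 and 0.270), and 11, among them Sox2 and Pax6, were too low. None of 4 haematopoietic progenitor genes tested was called. The homeostatic genes P2ry12 (-0.48), Csf1r (-0.29), Siglech (-0.39) and Gpr34 (-0.59) fell, 4 of 12, and without D2-1 8 of 12 were called.

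Vim+ and Vim- cells were compared in the 5 D0 and D2 libraries, since each Ctrl library had under 20 Vim+ cells. Here 1507 of 8810 genes were called, 17.1% of those tested, and 905 without D0-2. Monocyte markers summed to more in Vim+ cells in 5 of 5 libraries (median 28.6 against 13.9 CPM), and microglia markers to less in 5 of 5 (median 15104 against 20833 CPM). Their part in the differences was not tested. In cells without other myeloid markers 770 genes were called.

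The named rises in Vim+ cells had log2 folds of 2.76 to 3.79. Cd36, a scavenger receptor, rose by 3.79 (SE 0.27, edgeR adjusted p = 1.86e-11, 53.5 against 3.67 CPM, higher in 5 of 5 libraries), Ass1 by 3.72, the chemokine gene Cxcl13 by 3.72, and S100a4, a calcium-binding protein, by 3.58 (SE 0.20, edgeR adjusted p = 1.14e-13, 92.3 against 7.82 CPM). Anxa2 (3.02), Cyp4f18 (3.01), S100a6 (2.87, 4 of 5 libraries) and Lgals1, galectin-1 (2.76), followed. Lag3, an inhibitory receptor found in microglia, had the largest fall (-1.68, SE 0.13, edgeR adjusted p = 4.96e-11, 86.0 against 290.3 CPM), followed by Whrn (-1.64), Gm13889 (-1.58), Gm40841 (-1.55) and Mgll, monoacylglycerol lipase (-1.55), each lower in 5 of 5. Of these 13 genes, 12 were called in all alternatives in which they were tested, and Gm13889 in 9 of 11.

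All 13 mitosis genes rose in Vim+ cells, by 1.01 for Aurkb to 2.19 for Ccnb2, with a median of 1.61 compared to -0.03 over all genes tested. All 13 were also called in every alternative but 1, since Aurkb was not called without D0-1 (edgeR adjusted p = 0.0594). In contrast, 1 of 11 DNA replication genes was called (Uhrf1 1.44, edgeR adjusted p = 0.00219), and the list's median was 0.18. Of the 10 cytoskeletal and calcium-binding genes 9 rose, with a median of 2.02, and S100a11 was not called (0.63, edgeR adjusted p = 0.251). Lmna (1.22) and Lmnb1 (1.43) rose and Macf1, which links filaments and microtubules, fell (-0.41), and without D0-3 1 of these rises was called. Cd44, a hyaluronan receptor of leukocytes and progenitors, rose (1.38) but was too low to be tested in cells without other myeloid markers, and Runx1 fell (-0.33), but was not called without D0-2, D0-3 or D2-2, at 4000 UMIs or with DESeq2. Crkl, an adaptor protein known to bind CD34, fell by 1.03 on the log2 scale, a call that was lost without thinning (-0.19), at 4000 UMIs (-0.39) and with DESeq2 (-1.06). Of 12 homeostatic genes 7 fell, with Fcrls at -0.99, P2ry13 at -0.97 and P2ry12 at -0.88, and Olfml3 rose (0.31), the last not called without D0-1.

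Nes and Vim were thus each higher in cells positive for the other. Beside Vim, S100a4 was 3.58 higher on the log2 scale, and beside Nes 0.61 higher (edgeR adjusted p = 0.391). The difference between the 2 comparisons was not tested, since they share libraries and cells.

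Cd34+ and Cd34- cells, compared in all 8 libraries, differed in 134 of 9268 genes, 1.45% of those tested. The number was 72 without D0-1, 56 without D0-2 and 38 in cells without other myeloid markers. The changes were small. Pclaf, a partner of PCNA (0.68), Spc24 (0.67), Racgap1 (0.65) and Top2a, topoisomerase 2 (0.63, SE 0.08, edgeR adjusted p = 5.55e-08, 89.4 against 58.6 CPM, higher in 8 of 8 libraries), had the largest log2 folds among genes that reached 20 CPM, followed by Birc5 (0.58), Cdca3 (0.58) and Cenpf (0.58). Vim, as a description, was higher by 0.58 (SE 0.10, 5 of 8 libraries), Nes by 0.44, Mki67 by 0.43 (8 of 8) and Lgals3 was lower by 0.51 (higher in 1 of 8). Hspb1 (-0.53), Ppp2r3d (-0.52), Plaur (-0.45, edgeR adjusted p = 0.04999), Fnip2 (-0.45) and Mfap1a (-0.45) fell, of which Plaur was called in 2 and Mfap1a in 4 of 14 alternatives.

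Of 13 mitosis genes 7 rose in Cd34+ cells, with a median of 0.43 compared to 0.00 over all genes, and without D2-2 4 were called. None of 11 DNA replication genes was called. S100a4 (0.96), Crip1 (0.42), Capg (0.39) and Tmsb10 (0.33) rose among 10 cytoskeletal and calcium-binding genes. Lmnb1 rose by 0.40, which was not called without D0-2, D2-1 or D2-2. None of the 4 haematopoietic progenitor genes tested (Ly6a, Runx1, Tal1 and Cd44) and none of 2 neural progenitor genes was called between Cd34+ and Cd34- cells. Of 12 homeostatic genes Olfml3 rose (0.15) and Gpr34 fell (-0.12). Olfml3 was not called without D2-1, and Gpr34 was not called without any 1 of the D0 libraries, D2-1 or D2-2.

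**Figure D5:**
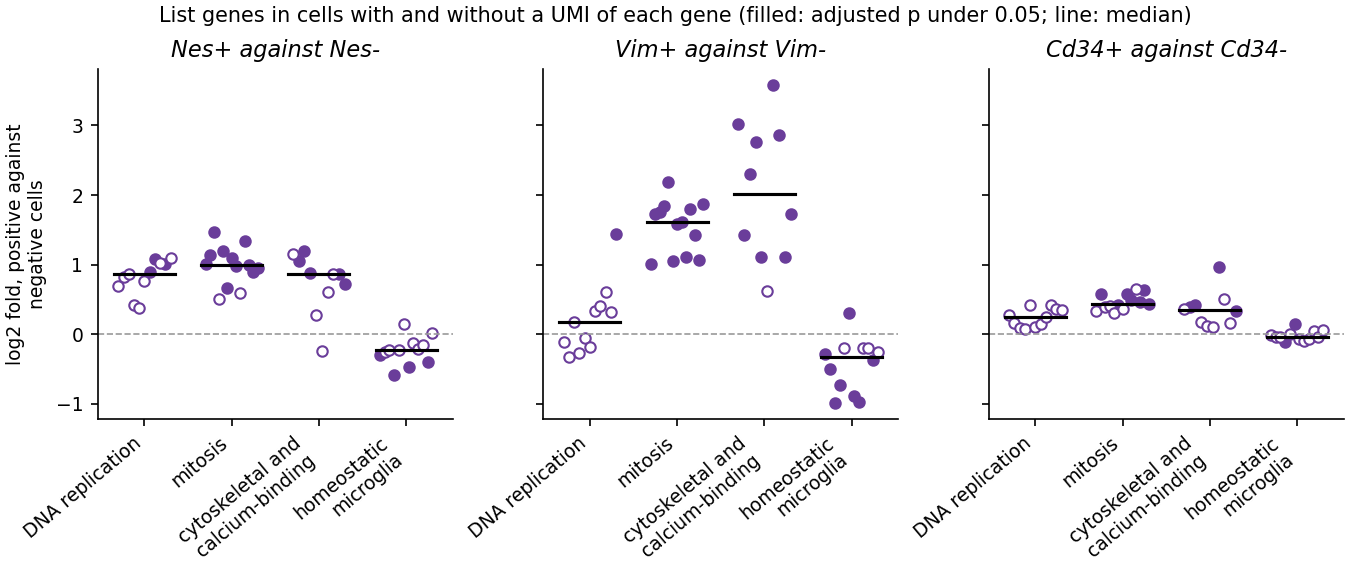
Log2 fold change of the genes of each list between member-positive and member-negative microglia-like cells (edgeR, library as a block), with called genes filled. Mitosis genes lie above 0 in all 3 comparisons (medians of 1.00 for Nes, 1.61 for Vim and 0.43 for Cd34), and the cytoskeletal and calcium-binding genes rise most in Vim+ cells (median 2.02).

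The same lists were read between conditions over all microglia-like cells. D0 called 2514 of 12411 genes against Ctrl (20.3%, 1567 up and 947 down) and D2 2296 (18.5%, 1344 up and 952 down). With scaling by library size only, which moved the median log2 fold of all genes of D0 from -0.05 to -0.27 and that of D2 from -0.03 to -0.14, the split was 1159 up and 2781 down in D0 and 1121 and 1540 in D2. No list below changed its direction with the scaling. The number for D0 was 1414 without Ctrl-2, 1347 without Ctrl-3 and 1247 without D0-2, and for D2 1396 without Ctrl-2, 1345 without Ctrl-3, 1458 without D2-1 and 1074 without D2-2.

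Few relatives of Nes and Vim could be followed between conditions. Of 15 intermediate filament genes, 10 were too low to be tested. Lmnb1 rose in D0 from 8.31 to 9.50 CPM in Ctrl to 41.7 to 75.2 CPM (log2 fold 2.92, SE 0.22, edgeR adjusted p = 1.95e-05), and Lmna (2.04) and Lmnb2 (1.37) rose too. In D2 Lmnb1 (2.76), Lmna (1.48) and Plec (1.01), which encodes the linker plectin, were called, but without Ctrl-2, Ctrl-3, D2-1 or D2-2 only 1 of these was. In cells without a cell-cycle UMI the D0 log2 fold of Lmnb2 was -0.24 (SE 0.41), which was not called. The genes that rose encode lamins of the nucleus and a linker. The listed genes for filaments of the cytoplasm, Gfap and Des among them, were all too low to be tested, so none of them could be called.

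Of 13 neural progenitor genes, 11 were too low, among them Sox2, Pax6 and Dcx. Hes1, a target of Notch signalling, fell from 70.7 to 86.1 CPM in Ctrl to 22.3 to 23.1 CPM in D0 (-1.58, SE 0.16, edgeR adjusted p = 0.000165) and 20.9 to 32.5 CPM in D2 (-1.44). Notch1 had a log2 fold of -0.40 in D0 that was not called (edgeR adjusted p = 0.0644) but was with the replicate number as a block (-0.41, edgeR adjusted p = 0.0443), and it was called without D0-1 as well.

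Of 12 haematopoietic progenitor genes, 7 were tested. Cd44 rose from 0.561 to 1.28 CPM in Ctrl to 7.37 to 11.4 CPM in D0 (3.55, SE 0.34, edgeR adjusted p = 0.000107) and 14.1 to 20.9 CPM in D2 (4.43). Spn, which encodes CD43 and is also on the list of monocyte markers, rose by 4.05 and 4.71 and the transcription factor gene Myb by 2.76 and 2.40, both staying under 4 CPM in each library. Ly6a, which encodes the stem cell antigen SCA-1 and is high in endothelium, rose by 0.82 and 1.20. Tal1 fell in D0 (-0.77, edgeR adjusted p = 0.0352), a call that was lost without any 1 of the Ctrl libraries, D0-1 or D0-2, and Runx1 and Flt3 were not called. Kit, Gata2, Itga2b and Cd93 were among those too low. Of 4 relatives and partners of Cd34, Podxl2, a sialomucin of the same family, fell from 4.94 to 6.24 CPM in Ctrl to 1.37 to 2.66 CPM in D0 (-1.20, edgeR adjusted p = 0.0136) and 1.33 to 1.34 CPM in D2 (-1.999). The D0 call was lost without Ctrl-2 or Ctrl-3.

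Of the 12 cytoskeletal and calcium-binding genes, 11 rose in D0 and 10 in D2, with medians of 2.19 and 2.07. S100a6 (4.45 in D0 and 5.29 in D2), S100a4 (4.10 and 4.84) and Anxa2 (3.71 and 4.23) had the largest folds of those named with Vim above. In D2-2, the library with more Vim, S100a4 reached 56.2 CPM, compared to 9.55 CPM in D2-1. All 13 mitosis genes rose in both conditions, with medians of 5.73 and 6.12. DNA replication genes rose in D0 (11 of 14, median 1.86, Rrm2 5.99) and in D2 5 of 14 were called (Rrm1, Rrm2, Tyms, Cdc45 and Uhrf1). D0-3 stood apart, with Mcm5 at 58.7 CPM against 10.9 and 14.4 CPM in D0-1 and D0-2 and Mcm6 at 63.0 against 16.2 and 12.7 CPM, and the lowest D0 library lay below the lowest Ctrl library for Mcm3 (37.8 against 39.3 CPM) and Pcna (18.2 against 19.2 CPM), neither of which was called. The D0 count was 7 without any 1 of the Ctrl libraries, 8 without D0-3, 6 with the version of Cell Ranger in the fit, 1 with D2-3 included and 1 in cells without cell-cycle UMIs, and Mcm2 was called with the replicate block (1.68, edgeR adjusted p = 0.0236) but not without it (2.08, edgeR adjusted p = 0.0548). The D2 count was 9 without D0-3. Homeostatic genes, of which 10 of 12 also served to name the clusters, fell (8 of 12 in D0 and 10 of 12 in D2, with P2ry12 at -1.17 and -2.19), and the D0 count was 4 without Ctrl-2 or Ctrl-3, 5 without D0-2 and 1 with D2-3 included, with which that of the cytoskeletal and calcium-binding genes in D0 was 5. Siglech was called in D0 only with the replicate block (-0.30, edgeR adjusted p = 0.0420).

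Among 5765 genes with at least 20 CPM, the genes whose log2 level over the 8 libraries was most like that of each member were, for Nes, the chaperonin gene Hspe1 (Pearson's r = 0.987), Psmg4 (0.981), Tpm4 (0.981), Cenpb (0.978) and Pilra (0.977). For Vim they were Tspo, which encodes a protein of the outer mitochondrial membrane (0.998), Serf2 (0.994), Arhgdib (0.994), Rps2 (0.993) and Knstrn (0.993). For Cd34 they were Ppil2 (0.980), Lrp5 (0.978), Rtn4rl1 (0.974), Itm2c (0.970) and Slc46a1 (0.964). The 8 points share 3 conditions, so that these values describe the pattern over libraries. No gene was among the 5 of more than 1 member.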

How the data were processed

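The authors made the deposited UMI counts per gene and barcode with Cell Ranger (3.1.0 per the labels, 3.0.2 or 3.1.0 per the file headers) on mm10, with no normalization. As in the study, barcodes outside 500 to 20000 UMIs, with fewer than 200 genes or with over 10% mitochondrial UMIs were dropped. Cells were clustered by the Leiden method (scanpy 1.11.5, leidenalg 0.10.2, python 3.11.15) on 10 principal components of 3000 variable genes, with 20 neighbours and a resolution of 0.6. Nes, Vim, Cd34, Mcm5, Mcm6, Mki67 and Lgals3 were left out of the clustering. Clusters took the name of a cell type if 3 or more of its markers reached 20 CPM and a log2 fold of 1 over the other cells, and otherwise microglia-like where at least 3 microglia markers reached 100 CPM. A cluster with few UMIs for its libraries and no marker of its type among its 10 top genes was left unnamed. This took 2 clusters (1591 cells), at 0.331 and 0.289 of the median UMIs of their libraries. In them 9 and 10 microglia markers reached 100 CPM. The names can differ from those of the study. Scrublet called 59 of 30463 cells (0.194%), a share at which such a caller has not worked, and no doublets were removed. D2-3 was left out of the groups as in the study, and its cells were placed by their 30 nearest neighbours.

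UMIs were summed per library, which is the replicate, and fitted with edgeR 4.0.16 (R 4.3.3) by the quasi-likelihood test with TMM scaling, its filter on low counts and Benjamini-Hochberg adjustment over all genes tested. The groups Ctrl, D0 and D2 were fitted together, and a gene was called at an adjusted p under 0.05. Libraries came from separate brains that the study collected on 1 day, so p-values measure the spread between these libraries. Positive and negative cells were compared in libraries with at least 20 of each, after thinning to 2000 UMIs. Exact binomial intervals (95%) and the limit that a count of 0 allows (3 counts) cover counting error only. The fits were also run on simulated counts with the same low spread for every gene. The spread of Nes and Vim between libraries was larger (pooled SD of 0.740 and 0.588 in log2 CPM), so that run does not cover them.

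Named genes were the members, the 4 genes named with them, the genes of the lists, and for each split the 8 largest rises and 5 largest falls among calls that reached 20 CPM on the higher side. The members, lists and rules were chosen with earlier results of these data known. Deviations of libraries from their group means correlated for libraries of the same number by 0.370, 0.184 and 0.145 between Ctrl and D0. Those of libraries with different numbers correlated by -0.336 to 0.270, so a pairing by the labels' numbers was not established. The main fits between conditions used no pairing, and the number entered as a block among the alternatives only. Alternatives included DESeq2 1.42.0, other scalings, the Cell Ranger version as a term, the replicate number as a block, other depths and cell sets, and each library left out in turn. Scaling by library size only was chosen after seeing the data.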

Additional observations from a re-analysis of the deposited data

Results flagged for a closer look

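D2-3, the library that the study left out and that enters no comparison above, held more of each member than any other library. After thinning to 2000 UMIs, Nes was found in 20.4% (exact 95% interval 17.5 to 23.6) of its 691 microglia-like cells, Vim in 36.2% (32.6 to 39.9) and Cd34 in 37.9% (34.3 to 41.7). The highest shares in the Ctrl libraries were 0.913%, 0.598% and 28.6%. In D2-1 and D2-2 the shares were 9.53% and 2.71% for Nes, 7.59% and 12.8% for Vim, and 16.0% and 17.2% for Cd34. The share of its barcodes over 20000 UMIs, 37.3%, also lay above the 1.13% to 24.2% of the other libraries. Its microglia-like cells held 8706 CPM of microglia markers, compared to 16570 CPM in D2-1 and 17024 CPM in D2-2. Of its 795 microglia-like cells, 108 were without cell-cycle UMIs. Its file header names Cell Ranger 3.1.0, as do those of Ctrl-2 and Ctrl-3 and of no other library. The part of these traits in the shares was not tested.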

How the results depend on the processing

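The log2 fold changes of Nes and Vim stayed positive in all alternatives, from 2.34 to 3.49 for Nes and 2.34 to 5.24 for Vim in D0. When 1 library was left out, the D2 value ranged from 2.60 to 4.38 for Nes, 4.17 to 5.71 for Vim and -0.50 to -0.21 for Cd34. With D2-3 included the D2 values were 4.62 for Nes, 6.14 for Vim and 0.36 for Cd34, the last of opposite sign. Over all kept myeloid cells Vim was at 2.34 in D0 and 2.44 in D2, and Spn, which rose in microglia-like cells, was at -0.045 (SE 0.80) in D0. For Cd34 in D0, the value was -0.22 with scaling by library size only, 0.26 with the version of Cell Ranger in the fit, 0.15 without an upper UMI limit and 0.13 without cells with vascular or glial markers. In D2 it was -0.093 with the version and -0.21 without the UMI limit. In cells without cell-cycle UMIs Lmnb2 (-0.24, SE 0.41) and Rrm1 (-0.18, SE 0.16) in D0 had the opposite sign. So did Cdc45 (-1.19, SE 0.61) and Rrm1 (-0.28, SE 0.19) in D2, and none of these falls was called. Without thinning, Gins2 was 0.50 higher in Vim+ cells, where the thinned value was negative. Likewise Cd44 was 0.73 higher in Cd34+ cells, where the thinned value of -0.00042 (SE 0.22) lay within its error. The cause was not tested for these changes, beyond the cells or libraries that each setting leaves out.

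The numbers of genes called moved more than the folds. For D0 they were 3940 with scaling by library size only, 1403 with the Cell Ranger version, 484 with D2-3, 1656 without other myeloid markers, 1234 in cells without cell-cycle UMIs and 1247 to 2600 with 1 library left out. For D2 they were 1140, 1330 and 1501 with the version, D2-3 and cells without cell-cycle UMIs, and 1074 to 3064 with 1 library left out. For Nes+ cells they were 3892 without thinning, 1686 at 4000 UMIs, 407 with DESeq2, 145 without other myeloid markers and 457 to 757 with 1 library left out. For Vim+ cells they were 3876 without thinning, 984 with DESeq2, 770 without other myeloid markers and 905 to 1495 with 1 library left out. For Cd34+ cells they were 2240, 219, 47 and 38 under the same settings as for Nes+ cells and 56 to 145 with 1 library left out.

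The differences in shares, in percentage points, scale with depth. For Nes in D0 (3.56) they were 6.07 at 4000 UMIs, 12.6 without thinning and 0.562 where 2 UMIs were asked for. For Nes in D2 (5.53) they were 10.5, 13.4 and 1.06, 10.3 with D2-3 and 2.12 to 8.94 with 1 library left out. For Vim in D0 (7.53) they were 4.78 at 1000 UMIs, 12.03 at 4000, 17.7 without thinning and 2.36 with 2 UMIs. For Vim in D2 (9.63) these were 6.03, 15.1, 17.7 and 3.55, and the value was 12.2 without vascular or glial markers, 18.3 with D2-3 and 7.04 to 12.2 with 1 library left out. For Cd34 in D0 (-4.70) they were -2.17 at 1000 UMIs, -1.74 with 2 UMIs and -1.69 without other myeloid markers. For Cd34 in D2 (-9.96) they were -4.95 at 1000 UMIs, -12.7 at 4000, -19.8 without thinning, -2.53 with 2 UMIs, -6.97 without vascular or glial markers and -2.85 with D2-3. Without other myeloid markers, the log2 ratio in MAC2+ cells was 1.03 for Vim and -0.48 for Cd34, that of Vim in replicating cells -1.25 and that of Cd34 in mitotic cells 0.38.

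With the replicate number as a block, 2924 genes were called in D0 and 2302 in D2. Libraries of the same number correlated by 0.0488 and 0.0775 between Ctrl and D2 and by -0.128 and 0.252 between D0 and D2. Libraries of different numbers correlated by -0.0775 to 0.0139 and by -0.340 to 0.340, so no pairing of D2 was established either. With this replicate block Nes was at 3.07 and 3.97, Vim at 4.60 and 4.88 and Cd34 at -0.01 and -0.32 in D0 and D2. Among list genes in D0 it added the calls of Mcm2, Notch1 and Siglech and changed no other. In D2 the calls it added included Cdc6 (3.72), Gins2 (1.53), Tagln2 (1.00) and Ung (2.71), and it removed Plec (1.00). Depth limits Nes and Vim in Ctrl, whose libraries held 66 to 127 and 67 to 106 UMIs of them in all microglia-like cells.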

Other observations

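In D2-3, Vim was found in 34.8% (26.9 to 43.2) of its 141 Nes+ cells and 36.5% of its Nes- cells, and Mki67 in 23.4% and 22.2%. Mcm5 or Mcm6 was found in 41.1% of Nes+ cells and 33.8% of Nes- cells there. MAC2+ cells of D2-3 held 1078 CPM of Vim, compared to 294.5 CPM in the rest, and 137 CPM of Nes, compared to 124 CPM.

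The unnamed clusters of low UMI counts held 145 ± 46.6 CPM of Cd34, 17.7 ± 17.7 CPM of Nes and 50.0 ± 47.7 CPM of Vim (SD over 8 libraries), which lay within the spread of the microglia-like cells. In replicating cells the log2 ratio of Lgals3 ranged from -3.23 in D2-1 to 3.30 in D2-2. In mitotic cells Lgals3 was lower in 5 of 5 libraries, with a log2 ratio of -1.02 ± 0.50.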
